A study of Arabidopsis thaliana with 6 samples.

Results

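The transcriptome of 12-day-old Arabidopsis thaliana seedlings that carry mutations in both MED8 and MED25 was compared with that of wild-type Col-0 seedlings, gene by gene. The comparison used 4 of the 6 libraries of the study, chosen by their labels: both med8med25 libraries and both Col-0 libraries. The other 2 libraries came from hac1hac5 seedlings, mutated in the histone acetyltransferase genes HAC1 and HAC5. They entered the fit to estimate the spread between libraries, and they served as a second reference where this is stated. The labels give the genotypes as wild type (Col-0), med8-/-med25-/- and hac1-/-hac5-/-, all 12 days old, and name neither alleles nor backcrosses. All plants grew on Murashige and Skoog plates at 22 °C in long days (16 h light, 8 h dark), untreated, and RNA from whole seedlings was read from 1 end for 50 bases. Whether libraries of 1 genotype were made from separate cultures is not stated in the labels, and the p-values therefore measure only how these samples vary, which may be technical variation. In bulk RNA of whole seedlings, fewer cells of a type and less RNA per cell cannot be told apart.

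Mediator is a large protein complex that carries the signal of DNA-bound transcription factors to RNA polymerase II. Its head module, which holds MED8, contacts the polymerase, whereas MED25, also called PFT1 for PHYTOCHROME AND FLOWERING TIME 1, sits at the periphery and is bound directly by transcription factors of several hormone pathways. In Arabidopsis both subunits are known for roles in flowering time and in jasmonate-dependent defence, and MED25 also for roles in light signalling, in iron homeostasis and in responses to abscisic acid.

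Values are given as normalized counts, the authors' deposited unit, which are read counts per gene brought to a common library size. They are not corrected for gene length, so levels are compared between libraries and not between genes. Depth, as whole reads recovered from the deposited values, was 36.2 and 33.1 M in Col-0 and 24.9 and 32.3 M in med8med25. Libraries of a genotype correlated across 20565 genes at r = 0.995 in Col-0 and 0.990 in med8med25, and the SD of the log2 difference between them was 0.25 and 0.35. Of 23898 genes tested, 6350 were called at an adjusted p under 0.05 (limma-trend on log2(normalized count + 1), Benjamini-Hochberg), which is 26.6% of those tested. The calls were 2929 genes higher in med8med25 (12.3%) and 3421 lower (14.3%). In every called gene the values of the groups did not overlap. With 2 libraries a group a call nearly requires this, so it adds no separate support. Most changes were moderate, with a median size of 0.62 on the log2 scale among called genes, and 790 higher and 972 lower genes changed by at least 1. Higher and lower calls numbered 908 and 1137 in a fit lacking Col-0 library 1, 816 and 1095 lacking Col-0 library 2, 2430 and 3149 lacking med8med25 library 1, and 3006 and 3538 lacking med8med25 library 2. In all, 1611 calls (650 higher and 961 lower) were kept in each of these 4 fits. With every library scaled to its total reads instead, the median change of all genes moved from 0.00 to 0.15 and the calls became 5203 higher and 1965 lower, so that 72.6% of calls were higher against 46.1% with the authors' scaling.

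**Figure D1:**
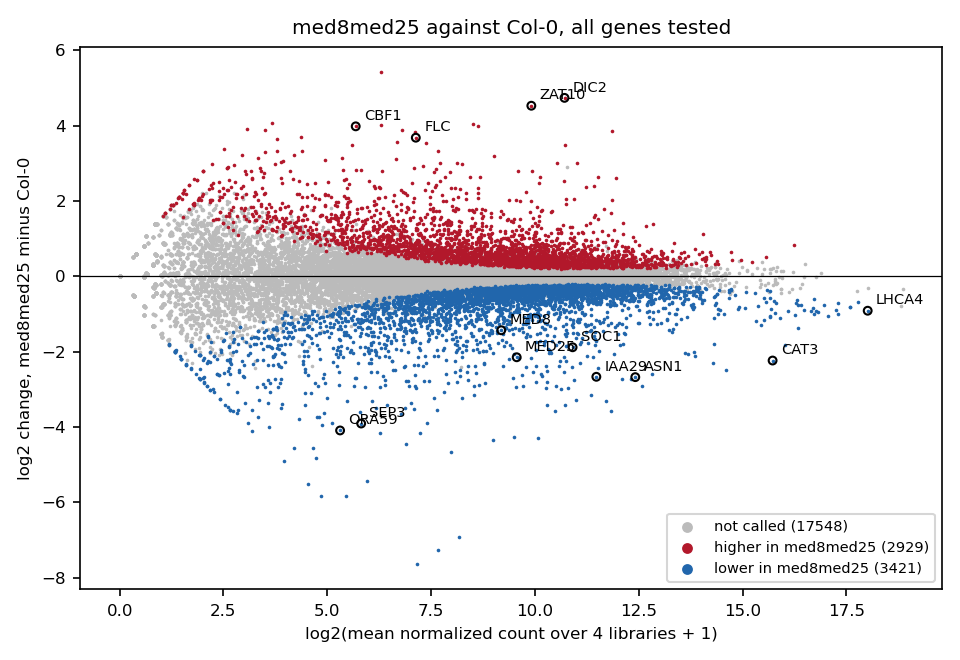
Each point is 1 of the 23898 genes tested, placed by its log2 mean normalized count over the 4 libraries (horizontal axis) and its log2 change in med8med25 against Col-0 (vertical axis). Red points are the 2929 genes called higher and blue points the 3421 called lower, and the outer points of the cloud reach 5.44 (AT4G27654) and -7.65 (AT4G01390).

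Both mutated genes had fewer reads in the double mutant. MED8 (AT2G03070) stood at 847 and 855 normalized counts (wild type) and 307 and 323 (double mutant). Its level fell 2.7-fold (log2 change -1.43, SE 0.08, adjusted p = 2.0e-05). MED25 (AT1G25540) had 1236 and 1227 (wild type) and 254 and 302 (double mutant) and fell 4.43-fold (log2 change -2.15, SE 0.11, adjusted p = 1.4e-05). Neither gene fell to 0, and since the labels name no alleles, it is not known here which transcript the remaining reads come from. Both were also lower than in hac1hac5, where MED8 was at 900.1 and 864 and MED25 at 1001 and 1178 (log2 differences -1.48 and -1.97, adjusted p = 1.0e-05 and 1.3e-05). Both calls held without each of the 4 libraries.

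The genes next to the targeted ones in annotation order were then listed, because a mutant can carry linked differences. Of the 50 tested genes nearest to MED8 on chromosome 2, 25 on each side, 7 were called, 1 higher and 6 lower. Of the 50 nearest to MED25 on chromosome 1, 15 were called, 6 higher and 9 lower, against 26.6% of all genes. TEM1 (AT1G25560), a repressor of flowering described below, is the second tested gene after MED25 in that order. The largest change near MED25 was that of AT1G25400, whose product the annotation does not characterise, at a log2 change of 2.42 (adjusted p = 2.8e-04).

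Among the other subunits of Mediator the share called was not far from that of all genes. Of 29 tested subunit genes, 1 was higher and 5 were lower, against 12.3% and 14.3% of all genes, and their median log2 change was -0.12 against 0.00. MED6, of the head module, was at 1004 and 1009 (wild type) and 799 and 759 (double mutant), a log2 change of -0.37 (adjusted p = 0.0095). AT1G26665, annotated as the MED10 subunit, was at 452 and 469 (wild type) and 333 and 342 (double mutant), a log2 change of -0.45, and AT3G52860, another subunit gene, at 179 and 211 (wild type) and 141 and 134 (double mutant), a log2 change of -0.49. These were small decreases, and none of the 6 calls in the list was made in fits lacking Col-0 library 1 or 2, where MED6 changed by -0.37 and -0.37, AT1G26665 by -0.47 and -0.42, and AT3G52860 by -0.61 and -0.37. Fits lacking med8med25 library 1 (-0.53) or 2 (-0.46) did not call AT3G52860 either. With total-count scaling the list turned to 4 higher and 0 lower and its median to 0.04, so no direction is given for it.

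**Figure D2:**
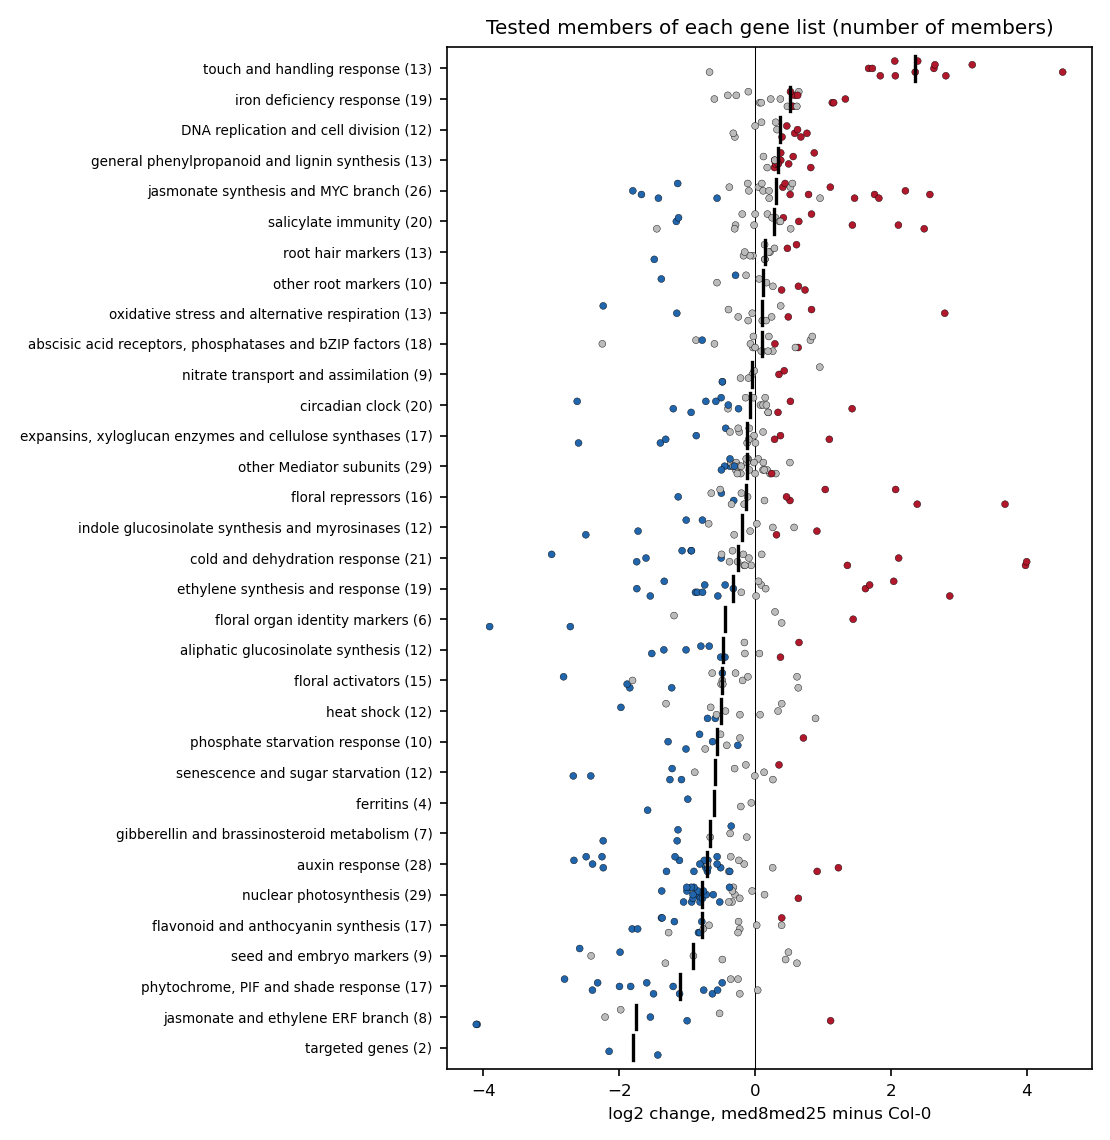
Log2 change in med8med25 against Col-0 (horizontal axis) of each tested member of the 33 gene lists, with lists ordered by their median (black bar) and the number of tested members in brackets. Red points were called higher, blue points lower and grey points were not called. The lists and their members were chosen with earlier results of these data known. The touch list has the highest median (2.36), and with total-count scaling the medians of 5 lists near 0 (Mediator subunits, floral repressors, clock, expansins and nitrate) change sign.

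FLC, MAF4 and MAF5 of the FLC clade, which represses flowering, rose, and the flowering integrator SOC1 fell. FLC, the MADS-box repressor that delays flowering until after winter, was at 20.3 and 18.3 (wild type) and 260.4 and 258 (double mutant). Its increase was 12.8-fold (log2 change 3.68, SE 0.17, adjusted p = 9.5e-06). Only part of the gene can be read without ambiguity: 37.4% of its 50-base exon windows occur in no other annotated gene on either strand, and antisense RNA from the locus cannot be separated because the strand setting is not given. MAF4 and MAF5, close relatives of FLC in a cluster on chromosome 5, rose as well. MAF4 was at 14.5 and 17.1 (wild type) and 61.7 and 78.0 (double mutant), a log2 change of 2.07 (adjusted p = 0.0012). MAF5 was at 19.3 and 23.5 (wild type) and 113 and 119 (double mutant), a log2 change of 2.39 (adjusted p = 1.1e-04). The med8med25 values were several times the wild-type values in both libraries for each of these genes, from a low level in Col-0.

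Other members of the FLC clade changed less or were not called. MAF2 was at 824 and 769.7 (wild type) and 650.1 and 838 (double mutant) and MAF3 at 282 and 287 (wild type) and 207 and 295 (double mutant), with overlapping groups and no call (log2 changes -0.11 and -0.20). FLM, also known as MAF1, was at 875 and 767 (wild type) and 1075 and 1276 (double mutant), a log2 change of 0.52 (adjusted p = 0.015), a call not made in fits lacking Col-0 library 1 (0.61) or 2 (0.42), or med8med25 library 2 (0.39). SVP, the partner of FLC and FLM in repression, was at 2825 and 2787 (wild type) and 2373 and 2149 (double mutant), a log2 change of -0.31 (adjusted p = 0.016), a small decrease that was not called in fits lacking Col-0 library 1 (-0.30) or 2 (-0.32) and with total-count scaling (-0.15). FRI, the activator of FLC, was at 245 and 218 (wild type) and 209 and 205 (double mutant) and was not called.

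Repressors of the AP2 family split. SMZ was at 49.3 and 47.3 (wild type) and 90.8 and 110.0 (double mutant), a log2 change of 1.03 (adjusted p = 0.0045), a call not made in fits lacking Col-0 library 2 (1.01). TOE2 was at 1141 and 1112 (wild type) and 1535 and 1575 (double mutant), a log2 change of 0.46 (adjusted p = 0.0018) and rose. TOE3 was at 298 and 287 (wild type) and 227 and 188 (double mutant), a log2 change of -0.50 (adjusted p = 0.023), and it was not called in fits lacking Col-0 library 1 (-0.47) or 2 (-0.52), or med8med25 library 2 (-0.36) and with total-count scaling (-0.33). TOE1 (0.14) and SNZ (-0.35) were not called. TEM1, a RAV-family repressor of FT and of gibberellin synthesis, was at 3108 and 2878 (wild type) and 1274 and 1462 (double mutant) and fell (log2 change -1.13, SE 0.08, adjusted p = 7.4e-05). Its paralog TEM2 was at 3645 and 3584 (wild type) and 1709 and 3131 (double mutant), with a wide gap between the med8med25 libraries and no call. TFL1, which keeps the shoot meristem indeterminate, was at 19.4 and 16.2 (wild type) and 9.66 and 15.1 (double mutant) and was not called. In all, 6 of the 16 repressors were higher and 3 lower (12.3% and 14.3% of all genes), and the median was -0.13, which turned to 0.02 with total-count scaling and to 0.06 without the first med8med25 library. Lacking Col-0 library 1 or 2 the list had 5 or 4 higher and 1 lower, with a median of -0.07 or -0.17.

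Among the activators of flowering SOC1, FUL and AGL24 fell. SOC1, the MADS-box integrator that FLC represses, was at 3033 and 3009 (wild type) and 853 and 785 (double mutant). This was a 3.69-fold decrease (log2 change -1.88, SE 0.14, adjusted p = 7.4e-05), and SOC1 was lower than in hac1hac5, where it was at 1781 and 2518 (log2 difference -1.37, adjusted p = 2.0e-04). FUL, which promotes flowering and fruit growth, was at 41.5 and 48.2 (wild type) and 5.34 and 5.63 (double mutant), a log2 change of -2.82 (adjusted p = 0.0011). AGL24, a partner of SOC1, was at 124 and 103 (wild type) and 44.1 and 51.7 (double mutant), a log2 change of -1.23 (adjusted p = 0.0039), a call not made in fits lacking Col-0 library 1 (-1.10). The groups were far apart for each of these genes.

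FT, the mobile signal made in leaves, was at low counts, 19.4 and 14.04 (wild type) and 7.48 and 1.81 (double mutant), a log2 change of -1.84 (adjusted p = 0.041). The gene was not called in fits lacking Col-0 library 1 (-1.63) or 2 (-2.06), or med8med25 library 2 (-1.05), with a pseudocount of 0.1 (-2.13) and with total-count scaling (-1.65). Of the photoperiod genes upstream of FT, GI was at 1514 and 1496 (wild type) and 1139.6 and 1022 (double mutant), a log2 change of -0.48 (adjusted p = 0.003), a call not made in fits lacking Col-0 library 1 (-0.47) or 2 (-0.49). FKF1 (-0.63) and CO (0.62), with CO at 8.71 and 6.48 (wild type) and 9.66 and 15.1 (double mutant), were not called. FD, the partner of FT in the meristem, was at 112 and 132 (wild type) and 98.1 and 76.8 (double mutant) and was not called either (log2 change -0.48). SPL4 (-0.47), SPL5 (-0.18) and SPL9 (-0.10) of the age pathway, AGL19 (-0.29) and AGL42 (0.64), a relative of SOC1, were not called. LFY and AP1, which give the flower its identity, were under 6 normalized counts in these 4 libraries. In all, 5 of the 15 tested activators were lower and 0 higher, with a median of -0.48, against 14.3% and 12.3% of all genes. The lower calls numbered 2 and 3 in fits lacking Col-0 library 1 and 2. TSF, SPL3 and CIB1 had too few reads to test.

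Genes of floral organ identity were mostly near 0 at this age, with SEP3 as the exception in Col-0. SEP3, which acts in all floral whorls, was at 97.5 and 111 (wild type) and 7.71 and 4.65 (double mutant), a log2 change of -3.91 (SE 0.34, adjusted p = 1.6e-04). AG, which specifies stamens and carpels, was at 5.8 and 5.38 in Col-0 and had no read in either med8med25 library, at least 1.65-fold lower with a floor of 3 reads per library. It was not called in fits lacking Col-0 library 1 (-2.67) or 2 (-2.77). PI, of petals and stamens, went the other way, at 12.6 and 11.8 (wild type) and 26.3 and 46.2 (double mutant), a log2 change of 1.45 (adjusted p = 0.043). It was not called in fits lacking Col-0 library 1 (1.49) or 2 (1.41), or med8med25 library 2 (1.05). Nor was it called with a pseudocount of 0.1, with no filter or with voom. Of the 6 genes tested 1 was higher and 2 were lower, against 12.3% and 14.3% of all genes, and 1 lower call was left in each fit lacking a Col-0 library. The summed level of the 6 genes was 124 and 137 in Col-0 and 38.3 and 58.4 in med8med25. Flowering stage of the seedlings was not tested.

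**Figure D3:**
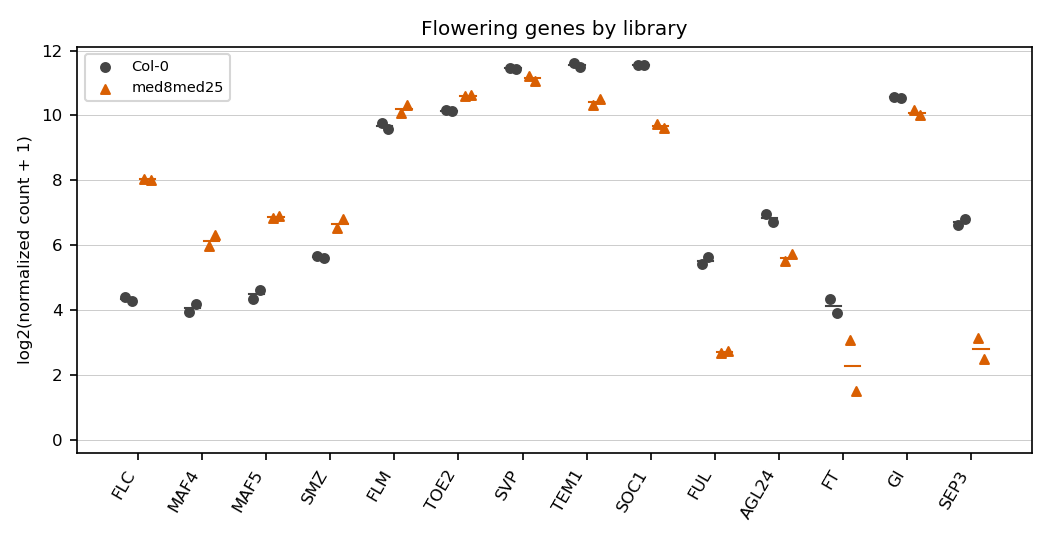
Log2(normalized count + 1) of 14 flowering genes in each library, with Col-0 as grey circles, med8med25 as orange triangles and a bar at the mean of each pair. FLC, MAF4 and MAF5 sit far above the wild type in both med8med25 libraries, and SOC1, FUL, AGL24, TEM1 and SEP3 below it.

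The jasmonate pathway splits in Arabidopsis into a MYC branch, induced by wounding, and an ERF branch, which needs ethylene as well and drives defensins and chitinases through ORA59 and ERF1. Of 8 tested genes of the ERF branch 4 were lower in med8med25 and 1 higher, against 14.3% and 12.3% of all genes. ORA59, its integrating transcription factor, was at 94.95 and 53.1 (wild type) and 2.75 and 3.76 (double mutant), a log2 change of -4.09 (SE 0.55, adjusted p = 0.0012). PDF1.3, a defensin, was at 17.41 and 15.1 in Col-0 and had no read in either med8med25 library, at least 4.79-fold lower with the floor of 3 reads per library, and 95.1% of its windows occur in no other gene. PR4, also called HEL, was at 3124 and 3113 (wild type) and 954 and 1203 (double mutant), a log2 change of -1.54 (adjusted p = 9.9e-05). HCHIB, a basic chitinase, was at 1280.5 and 1430.3 (wild type) and 695 and 659 (double mutant), a log2 change of -0.999 (adjusted p = 7.0e-04). These 4 decreases were called without each of the 4 libraries.

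The other defensins were too weak to judge: PDF1.2, PDF1.2b and PDF1.2c were between 0 and 6.36 in Col-0 and without a read in med8med25, and were not called. ERF1 was the exception in the branch, at 12.5 and 16.0 (wild type) and 38.8 and 26.1 (double mutant), a log2 change of 1.11 (adjusted p = 0.019), a call not made in fits lacking Col-0 library 1 (0.95) or 2 (1.28), or med8med25 library 1 (0.84) and with only the 4 libraries in the fit. The median of the 8 genes was -1.76, and its size depended on the pseudocount. It was -3.1 with a pseudocount of 0.1 and -0.91 with a pseudocount of 5. The GCC box, GCCGCC on either strand, is the DNA element that ERF proteins bind. It occurs in the 250 bases before the annotated start of 3 of the 8 genes (37.5%) against 1.95% of all 23897 windows, and 1 of these genes is ORA59. The list was chosen as a branch that acts through ERF proteins, so this share is not a result of the expression data. A match is only a run of letters, and genes higher or lower by at least 1 held it in 2.28% and 1.65% of windows, near the share of all genes. The stretch of the ORA59 promoter with this match is shown because ORA59 is the most changed regulator of the branch, from RefSeq (TAIR10.1), 5′ to 3′ on the strand of the gene, with the GCC box in capitals, on chromosome 1 from 1882657 to 1882716 on the plus strand:
ORA59: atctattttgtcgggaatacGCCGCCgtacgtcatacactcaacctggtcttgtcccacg

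In the MYC branch several JAZ and synthesis genes rose, and the storage protein genes VSP1 and VSP2 fell. Among the JAZ genes, whose products repress MYC factors and are themselves induced by jasmonate, JAZ8 was at 1.94 and 1.09 (wild type) and 20.3 and 9.24 (double mutant), a log2 change of 2.58 (adjusted p = 0.0046). JAZ7 was at 23.2 and 23.61 (wild type) and 110.1 and 66.2 (double mutant), a log2 change of 1.82 (adjusted p = 0.002). JAZ1 was at 576 and 584 (wild type) and 1844 and 1396 (double mutant), a log2 change of 1.47 (adjusted p = 4.8e-04). Both med8med25 libraries were above the wild type for each gene, the first more than the second. JAZ8 was not called in fits lacking Col-0 library 2 (2.33) and with voom (2.85).

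JAZ6 went the other way, at 3013 and 2746 (wild type) and 1263 and 1350.4 (double mutant), a log2 change of -1.14 (adjusted p = 9.6e-05). Of the synthesis enzymes, the 13-lipoxygenase gene LOX4 was at 80.05 and 116 (wild type) and 856 and 237 (double mutant), a log2 change of 2.22 (adjusted p = 0.013), a call not made in fits lacking Col-0 library 1 (1.95) or 2 (2.48). AOC3, an allene oxide cyclase, was at 207 and 194 (wild type) and 763 and 609.5 (double mutant), a log2 change of 1.76 (adjusted p = 3.3e-05). OPR3, a peroxisomal reductase of jasmonate synthesis, was at 759 and 791 (wild type) and 862 and 748 (double mutant) and was not called. The AOC3 paralogs AOC1, AOC2 and AOC4 were not called.

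Of the outputs of the MYC branch VSP1, VSP2, TAT3 and LOX2 fell, and CORI3 (-0.38), CYP94C1 (0.55) and CYP94B3 (0.96) were not called. VSP2, a vegetative storage protein, was at 3859 and 4682 (wild type) and 1197 and 1485 (double mutant), a log2 change of -1.67 (adjusted p = 8.8e-05). VSP1 was at 614 and 549 (wild type) and 223 and 209 (double mutant), a log2 change of -1.42 (adjusted p = 4.6e-05). TAT3, a tyrosine aminotransferase induced by jasmonate, was at 582 and 242 (wild type) and 61.5 and 186 (double mutant), a log2 change of -1.80, and it was not called in fits lacking Col-0 library 1 (-1.17) or 2 (-2.43), or med8med25 library 1 (-1.01). LOX2, a chloroplast lipoxygenase, was at 12562 and 13048 (wild type) and 9193 and 8219 (double mutant), a log2 change of -0.56 (adjusted p = 0.0032), a call not made in fits lacking Col-0 library 1 (-0.59) or 2 (-0.53). Over the list of 26 tested genes 10 were higher and 5 lower, against 12.3% and 14.3% of all genes, with a median of 0.31 that was 0.17 when med8med25 library 1 was left out and 0.47 with total-count scaling. Without the first and second Col-0 library 5 and 3 higher calls were left, and 3 lower calls in both cases. MYC2 itself was listed at 0 in all libraries, and 1.48% of its windows occur in no other annotated gene, so its level is not known here.

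Ethylene genes moved in both directions. The receptor genes ETR2 and ERS2 and the F-box gene EBF2 were lower: ETR2 was at 869.8 and 916 (wild type) and 347 and 359 (double mutant), a log2 change of -1.34 (adjusted p = 4.6e-05), ERS2 changed by -0.88 (adjusted p = 2.5e-04), and EBF2, an F-box gene that removes EIN3, was at 6100.5 and 6049.8 (wild type) and 2299 and 1892 (double mutant), a log2 change of -1.54 (adjusted p = 3.0e-05). ACO1, which makes ethylene from its precursor, was at 931 and 1001 (wild type) and 273 and 304 (double mutant), a log2 change of -1.74 (adjusted p = 2.4e-05). The receptor genes ETR1 and EIN4, the F-box gene EBF1, and EIN2 and EIN3, the core of the signal, were not called. The ERF-family genes of the list did not move as 1 group: ERF4, ERF5 (1.69), ERF6 and ERF11 were higher, and ERF2 was lower. ERF2 was at 619.7 and 536 (wild type) and 262 and 390.0 (double mutant), a log2 change of -0.85 (adjusted p = 0.0079), a call not made in fits lacking Col-0 library 1 (-0.74) or 2 (-0.95) or with only the 4 libraries in the fit. ERF11 was at 26.03 and 35.3 (wild type) and 319 and 162 (double mutant), a log2 change of 2.87 (adjusted p = 3.9e-04), and ERF6 at 125 and 126 (wild type) and 553 and 487 (double mutant), a log2 change of 2.04 (adjusted p = 3.6e-05). ERF4 was at 1245 and 1228 (wild type) and 6289 and 2321 (double mutant), so that the med8med25 libraries differed from each other more than the second differed from the wild type, and it was not called in fits lacking Col-0 library 1 (1.64) or 2 (1.62). In all, 10 of 19 genes were lower and 4 higher, against 14.3% and 12.3% of all genes, with a median of -0.32. Each fit lacking a Col-0 library left 6 lower and 3 higher, and the median was -0.16 with total-count scaling.

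In the salicylate list 6 of 20 genes rose, among them regulators, and 2 fell, against 12.3% and 14.3% of all genes, while the regulators NPR1, PAD4 and WRKY70 were among the genes not called. SARD1, which activates salicylate synthesis, was at 47.5 and 31.4 (wild type) and 232 and 212 (double mutant), a log2 change of 2.49 (adjusted p = 1.2e-04). Its relative CBP60G was at 110.2 and 95.7 (wild type) and 559 and 358 (double mutant), a log2 change of 2.11 (adjusted p = 1.8e-04). GRX480, a glutaredoxin, was at 9.7 and 5.44 (wild type) and 25.9 and 17.7 (double mutant), a log2 change of 1.43, and it was not called in fits lacking Col-0 library 2 (1.07), or med8med25 library 1 (1.17) and with voom (1.49). EDS1, a node of basal immunity, rose by less (0.65, a call not made in fits lacking Col-0 library 1 (0.60)). PR5 was at 84.1 and 82.7 (wild type) and 37.0 and 36.6 (double mutant) and fell (log2 change -1.16, adjusted p = 0.0045), a call not made in fits lacking Col-0 library 1 (-1.15) or 2 (-1.17). PR1, the standard marker, was at 51.4 and 28.2 (wild type) and 6.49 and 26.5 (double mutant) and was not called. The median of the list was 0.28. Its calls depended on the libraries: 4 higher and 0 lower were left in the fit lacking Col-0 library 1 (median 0.43), 3 and 0 lacking library 2 (0.21), 6 and 1 lacking med8med25 library 1 (0.52), and 7 and 4 lacking its library 2 (0.16).

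The touch and handling list had the highest median of the 33 lists. Its genes respond within minutes to mechanical stimulation, and 12 of 13 were higher, against 12.3% of all genes, with a median log2 change of 2.36. The lists and their members were chosen with earlier results of these data known, so this rank and this count add no separate support. ZAT10, a zinc-finger repressor, was at 89.0 and 70.0 (wild type) and 1907 and 1789 (double mutant), a log2 change of 4.53 (SE 0.12, adjusted p = 1.0e-06). WRKY40 was at 112 and 91.4 (wild type) and 910.1 and 969 (double mutant) (9.19-fold, adjusted p = 5.5e-06), and ERF104 at 258 and 215 (wild type) and 1243 and 2215 (double mutant), a log2 change of 2.81 (adjusted p = 1.3e-04). Both med8med25 libraries lay far above both wild-type libraries for these genes.

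The zinc-finger pair SZF1 and SZF2, known from salt stress, rose in parallel, with SZF1 at 823 and 797 (wild type) and 5349.6 and 4848 (double mutant), a log2 change of 2.65 and SZF2 at 634 and 697 (wild type) and 2802 and 2743 (double mutant), a log2 change of 2.06. The calmodulin-like genes TCH2 and TCH3, named for their response to touch, changed by 2.07 and 2.36, and TCH4, a xyloglucan enzyme, by 1.67. WRKY33 (2.40), ZAT12 (2.63) and NHL3 (1.73) rose too. WRKY53 was at 41.5 and 49.3 (wild type) and 303 and 89.8 (double mutant), a log2 change of 1.85, with med8med25 libraries far apart, and it was not called in fits lacking Col-0 library 1 (1.72) or 2 (1.97). CML38 was the member that did not rise, at 102 and 121 (wild type) and 109 and 44.5 (double mutant). Without the first or without the second Col-0 library 11 of the 12 calls were made. The summed level of the list was 7053 and 6591 in Col-0 and 33990 and 31130 in med8med25. Harvest and handling were not recorded per library in the labels, and their part in these changes was not tested.

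The W-box, TTGACC or TTGACT on either strand, is the element that WRKY factors bind, and its share differed between genes that rose and genes that fell. It occurred in the 250 upstream bases of 40.6% of the 790 genes higher by at least 1, of 28.4% of all genes and of 23.5% of the 972 genes lower by at least 1. In the touch list 7 of 13 genes had it. The G-box (CACGTG), DRE core (CCGAC) and heat shock element (GAANNTTC, N any base) were counted in the same way. In genes higher by at least 1 their shares were 8.35%, 8.73% and 13.0%, against 6.99%, 12.4% and 9.41% of all genes. In genes lower by at least 1 they were 8.13%, 11.1% and 8.54%. The GCC box and the evening element are given in other paragraphs. No test was made of any of these shares. The windows of SZF1, SZF2, JAZ1 and WRKY33 are shown because each holds more than 1 match, with W-boxes in capitals, from RefSeq (TAIR10.1), 5′ to 3′ on the strand of the gene. They lie on chromosome 3 from 20776057 to 20776175, chromosome 2 from 16771935 to 16771994, chromosome 1 from 6621604 to 6621663 and chromosome 2 from 16108134 to 16108213, all on the plus strand:
SZF1: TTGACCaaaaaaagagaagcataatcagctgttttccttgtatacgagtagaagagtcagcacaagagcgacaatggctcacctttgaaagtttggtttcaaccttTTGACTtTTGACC
SZF2: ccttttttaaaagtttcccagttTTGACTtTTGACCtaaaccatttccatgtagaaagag
JAZ1: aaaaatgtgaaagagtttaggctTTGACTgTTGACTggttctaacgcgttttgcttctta
WRKY33: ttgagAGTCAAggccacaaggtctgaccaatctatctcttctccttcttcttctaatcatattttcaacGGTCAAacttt

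SZF1 and SZF2 share the paired run TTGACTtTTGACC, which begins 57 bases before the start of SZF1 and 39 bases before that of SZF2. JAZ1 has a pair with the same spacing, whose first match begins 150 bases before its start.

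In the cold and dehydration list the CBF genes rose, while some other members fell and others were not called. CBF2, 1 of the transcription factors that switch on cold-induced genes, was at 36.7 and 43.9 (wild type) and 1125 and 384 (double mutant), a log2 change of 4.001 (adjusted p = 3.5e-04). CBF1 was at 2.89 and 4.27 (wild type) and 165 and 29.98 (double mutant), a log2 change of 3.98 (adjusted p = 0.003), and CBF3, listed as DREB1A, at 19.3 and 28.8 (wild type) and 237 and 46.7 (double mutant), a log2 change of 2.12. The first med8med25 library was well above the second for each of these genes. CBF1 was not called in fits lacking Col-0 library 1 (3.76) and with voom (4.14), and DREB1A not in fits lacking Col-0 library 1 (1.84) or 2 (2.40), or med8med25 library 1 (0.95) and with voom (2.14).

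Several dehydrin and other cold-induced genes were lower. RAB18, a dehydrin, was at 2376 and 2309 (wild type) and 742 and 659 (double mutant), a log2 change of -1.74 (adjusted p = 1.8e-05). KIN1 was at 655 and 635 (wild type) and 281 and 159 (double mutant), a log2 change of -1.61 (adjusted p = 0.0014), and RD29A, a standard marker of cold and drought, at 2332 and 2355 (wild type) and 1516 and 990.1 (double mutant), a log2 change of -0.94 (adjusted p = 0.0048). These fell, with RD29A not called in fits lacking Col-0 library 1 (-0.94) or 2 (-0.93). P5CS1, the enzyme that makes the osmolyte proline, was at 17384 and 18000 (wild type) and 8456 and 8353 (double mutant), a log2 change of -1.07 (adjusted p = 1.7e-04). ADH1, alcohol dehydrogenase, fell furthest, at 2514 and 3109 (wild type) and 325 and 377 (double mutant), a log2 change of -2.99 (adjusted p = 2.0e-05). COR15A, COR47 and KIN2 were not called. The list held 4 higher and 7 lower of 21, against 12.3% and 14.3% of all genes. Lacking Col-0 library 1 or 2 it held 1 or 2 higher and 4 lower. Its median of -0.26 moved to -0.48, with 11 lower, without the first med8med25 library and to 0.02, with 6 higher, without the second, and was -0.10 with total-count scaling.

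**Figure D4:**
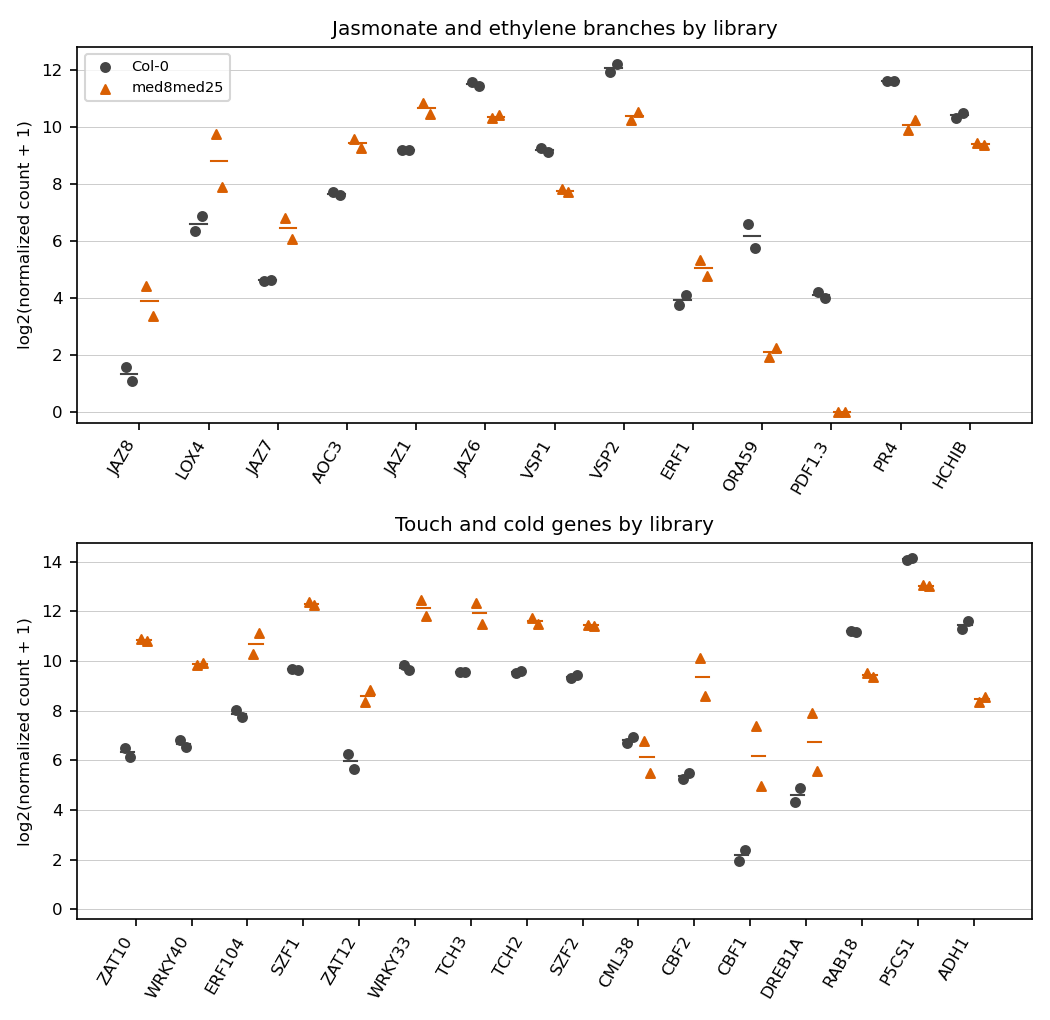
Log2(normalized count + 1) in each library for genes of the jasmonate and ethylene branches (upper panel) and of the touch and cold responses (lower panel), with Col-0 as grey circles, med8med25 as orange triangles and a bar at the mean of each pair. ORA59 and PDF1.3 lie far below the wild type and ZAT10, WRKY40 and CBF2 far above it, while the med8med25 libraries of CBF1, DREB1A and LOX4 stand apart from each other.

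Abscisic acid genes were called in both directions. Of 18 receptors, phosphatases and bZIP factors 2 were higher and 1 lower, against 12.3% and 14.3% of all genes, with a median of 0.10. That count changed with the libraries: 7 were higher and 2 lower (median 0.24) when med8med25 library 2 was left out, 2 and 2 (-0.05) when its library 1 was, and 1 and 1 (0.07 or 0.11) in the fits lacking a Col-0 library. With total-count scaling 5 were higher and 1 lower (median 0.26). HAB1, a clade A phosphatase that shuts off the signal, was at 1823 and 1878 (wild type) and 2931 and 2821 (double mutant), a log2 change of 0.64 (adjusted p = 7.6e-04). ABF1, a bZIP factor, was at 394 and 389.6 (wild type) and 213 and 245 (double mutant), a log2 change of -0.78 (adjusted p = 0.0015). HAB2 rose slightly (0.29), a call not made in fits lacking Col-0 library 1 (0.31) or 2 (0.28). PP2CA, another phosphatase, was at 2105 and 2071 (wild type) and 7277 and 1859 (double mutant), so the first med8med25 library was more than 3 times the second, and the gene was not called. HAI1 was at 203 and 195 (wild type) and 590.3 and 217 (double mutant) with the same order of libraries and no call. NCED3, which limits abscisic acid synthesis and stands in the cold list, was at 770.2 and 867 (wild type) and 3781 and 1165 (double mutant), a log2 change of 1.36 (adjusted p = 0.047), and it was not called in fits lacking Col-0 library 1 (1.28) or 2 (1.45) and with a pseudocount of 0.1, no filter or voom (1.36 in each).

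Genes of shade and phytochrome signalling were lower, 13 of 17 called and 0 higher, against 14.3% and 12.3% of all genes, with a median of -1.11. Phytochromes are the red and far-red photoreceptors, and the PIF factors they remove promote elongation. PHYA was at 8716 and 8969 (wild type) and 6036 and 5428 (double mutant), a log2 change of -0.63 (adjusted p = 0.0019). PHYB was at 5413 and 5479 (wild type) and 3693 and 3741 (double mutant), a log2 change of -0.55 (adjusted p = 7.9e-04). PIF3 fell by more, at 1236 and 1289 (wild type) and 488 and 612 (double mutant), a log2 change of -1.21 (adjusted p = 2.2e-04). PIF4 changed by -0.48 (not called in fits lacking Col-0 library 2 (-0.44)), and PIF5 and PIF7 were not called.

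The largest decreases were in genes that shade induces. PAR1, a helix-loop-helix protein that restrains the shade response, was at 2315 and 2077 (wild type) and 278 and 352 (double mutant), a log2 change of -2.80 (adjusted p = 1.3e-05). HFR1, with a like role, was at 3306 and 3119 (wild type) and 725 and 514 (double mutant), a log2 change of -2.39 (adjusted p = 1.2e-04). YUC8, which makes auxin downstream of PIF factors, was at 815 and 653 (wild type) and 147 and 144 (double mutant), a log2 change of -2.32 (adjusted p = 2.4e-05). Both med8med25 libraries lay far below both wild-type libraries for each gene. PIL1 (-1.995), HAT4 (-1.59), also called ATHB2, and KDR (-1.83) fell as well. Without the first Col-0 library the list still had 13 lower members, and 11 without the second.

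Auxin response genes were mostly lower. Of 28, 20 were lower and 2 higher, against 14.3% and 12.3% of all genes, with a median of -0.70, and 11 and 10 were lower in fits lacking Col-0 library 1 and 2. IAA29, an Aux/IAA repressor induced by auxin and shade, was at 4622 and 5191 (wild type) and 576 and 1030.5 (double mutant), a log2 change of -2.67 (adjusted p = 2.0e-04). IAA5 was at 532 and 454 (wild type) and 64.6 and 117 (double mutant), a log2 change of -2.49 (adjusted p = 5.8e-04). GH3.3, which conjugates auxin to amino acids, was at 2178 and 1906 (wild type) and 285 and 526 (double mutant), a log2 change of -2.39 (adjusted p = 3.2e-04). The second med8med25 library was the higher for each of these, still far below the wild type. IAA19 (-2.23), IAA30 (-2.25), GH3.5 (-1.11) and GH3.6 (-1.18) were also lower in every fit without a library.

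The 2 genes that rose were LBD18 and LBD16, which act in the start of lateral roots. LBD18 was at 26.1 and 28.9 (wild type) and 72.0 and 59.9 (double mutant), a log2 change of 1.23 (adjusted p = 0.0083) and LBD16 at 101 and 89.2 (wild type) and 149 and 216 (double mutant), a log2 change of 0.92 (adjusted p = 0.012). Neither was called in fits lacking Col-0 library 1 (1.16 and 1.001) or 2 (1.301 and 0.83).

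Genes of cell growth moved in both directions. EXPA8, an expansin that loosens the cell wall, was at 12278 and 12426 (wild type) and 1621 and 2564 (double mutant), a log2 change of -2.60 (adjusted p = 5.1e-05). EXPA1 was at 15081 and 14838 (wild type) and 5214 and 6219.9 (double mutant), a log2 change of -1.39 (adjusted p = 7.9e-05) and EXPA3 at 2398 and 2251 (wild type) and 883 and 986 (double mutant), a log2 change of -1.31 (adjusted p = 3.2e-05). XTH18, a xyloglucan enzyme, rose (1.09, adjusted p = 0.0011), and the cellulose synthase genes CESA1, CESA3 and CESA6 were not called. The list held 5 lower and 3 higher of 17, against 14.3% and 12.3% of all genes, with a median of -0.12. It held 11 lower and 3 higher (median -0.44) when med8med25 library 1 was left out, 4 and 4 (0.07) when its library 2 was, and 4 and 1 in each fit lacking a Col-0 library, and its median was 0.04 with total-count scaling, so no direction is given for it. Of the brassinosteroid genes, BR6OX2, of the last step of synthesis, was at 2489 and 2629 (wild type) and 509 and 578 (double mutant), a log2 change of -2.24 (adjusted p = 1.0e-05), and CPD at 15594 and 16525 (wild type) and 7716 and 6933 (double mutant), a log2 change of -1.13 (adjusted p = 1.7e-04). GA20OX1, of gibberellin synthesis, was at 333 and 297 (wild type) and 118 and 169 (double mutant), a log2 change of -1.15, a call not made in fits lacking Col-0 library 1 (-1.07) or 2 (-1.23). Together 4 of 7 genes of these hormones' metabolism were lower and 0 higher, against 14.3% and 12.3% of all genes, with a median of -0.66. Fits lacking a Col-0 library called 2 of them lower, and the median ran from -0.39 without med8med25 library 1 to -1.03, with 6 lower, without its library 2.

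Some genes of DNA replication rose a little, 6 of 12 higher and 0 lower, against 12.3% and 14.3% of all genes, with a median of 0.36. MCM7, of the replicative helicase, was at 591 and 598 (wild type) and 976 and 925 (double mutant), a log2 change of 0.68 (adjusted p = 6.5e-04). PCNA1, the sliding clamp, was at 306 and 336 (wild type) and 541 and 551 (double mutant), a log2 change of 0.77 (adjusted p = 0.0057), and it was not called in fits lacking Col-0 library 1 (0.70) or 2 (0.83). PCNA2 (0.63) was not called in fits lacking Col-0 library 1 (0.59). The mitotic cyclin genes CYCB1;1 and CYCB1;2 were not called. Without the first and the second Col-0 library 1 and 2 higher calls were made.

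Nuclear genes of photosynthesis were mostly lower, 19 of 29 called lower and 1 higher, against 14.3% and 12.3% of all genes, with a median of -0.77. In each fit lacking a Col-0 library, 2 were called lower, with medians of -0.80 and -0.76. PSAF, a subunit of photosystem I, was at 118780 and 117950 (wild type) and 51061 and 40871 (double mutant), a log2 change of -1.37 (SE 0.15, adjusted p = 5.2e-04). PSAG, of the same photosystem, was at 14465 and 13926 (wild type) and 7578 and 6599 (double mutant), a log2 change of -1.01 (adjusted p = 1.6e-04), with 41.2% of its windows in no other gene. The antenna gene LHCA3 was at 180330 and 185240 (wild type) and 93376 and 83274 (double mutant), a log2 change of -1.05 (adjusted p = 0.0024). The second med8med25 library was the lower in each case.

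In normalized counts the 5 largest decreases among called genes were LHCA4, LHCA1, PSBO1, LHCB5 and CAB3, all of this kind. LHCA4 was at 339440 and 351630 (wild type) and 192170 and 175360 (double mutant), a log2 change of -0.91 (adjusted p = 0.017). LHCA1 changed by -1.003, PSBO1, of the oxygen-evolving complex, by -0.81, LHCB5 by -0.81 and CAB3 by -0.69. LHCA4, LHCA1, LHCA3, PSBO1, LHCB5 and CAB3 were not called in fits lacking Col-0 library 1 (-0.94, -1.03, -1.07, -0.83, -0.81 and -0.70) or 2 (-0.89, -0.97, -1.03, -0.79, -0.80 and -0.67). CAB3 also lost its call with a pseudocount of 5 or no filter (-0.69 in each) and with median-of-ratios scaling (-0.67).

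The Rubisco genes did not move as 1 group. RBCS2B and RBCS3B were lower (-0.86 and -0.84), with 78.6% and 84.6% of their windows in no other gene, RBCS1A was at 522710 and 536450 (wild type) and 476090 and 368420 (double mutant) and was not called, and RBCS1B rose from 12697 and 13210 to 23543 and 17269 (log2 change 0.64, adjusted p = 0.01), a call not made in fits lacking Col-0 library 1 (0.61) or 2 (0.67). The Calvin cycle genes GAPA and GAPB were not called. The summed level of the 29 genes was 4770000 and 4905000 in Col-0 and 3357000 and 2776000 in med8med25. Highly expressed genes in general were called more often and lower: of 399 genes above 10000 normalized counts 46.4% were called, 44 higher and 141 lower.

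The largest rises in normalized counts among called genes were CAT2, FBA1, AT1G78850, GLDP2 and AT1G09310. CAT2, a peroxisomal catalase of photorespiration, was at 55910 and 54258 (wild type) and 114340 and 84147 (double mutant), a log2 change of 0.83 (adjusted p = 0.015). GLDP2, of the mitochondrial glycine decarboxylase and thus also of photorespiration, was at 20520 and 21507 (wild type) and 36492 and 29776 (double mutant), a log2 change of 0.65 (adjusted p = 0.0076). FBA1, a plastid aldolase, was at 39726 and 40788 (wild type) and 61345 and 53255 (double mutant), a log2 change of 0.51 (adjusted p = 0.015). AT1G09310, annotated with a domain of unknown function, changed by 0.39. CAT2, GLDP2, FBA1 and AT1G09310 were not called in fits lacking Col-0 library 1 (0.85, 0.62, 0.49 and 0.33) or 2 (0.81, 0.68, 0.52 and 0.44). AT1G78850, annotated as a mannose-binding lectin, was at 10582 and 10451 (wild type) and 26783 and 19498 (double mutant), a log2 change of 1.12 (adjusted p = 0.0013).

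The catalase genes moved apart. CAT3 was at 90391 and 87838 (wild type) and 21955 and 16316 (double mutant), a log2 change of -2.24 (SE 0.15, adjusted p = 4.4e-05), and CAT1 at 1722 and 1468 (wild type) and 752 and 680.1 (double mutant), a log2 change of -1.15 (adjusted p = 1.3e-04). Both fell while CAT2 rose. CAT3 was also lower than in hac1hac5, at 48275 and 47782 (log2 difference -1.34, adjusted p = 2.8e-04). BCS1, a mitochondrial outer-membrane AAA protein gene induced by stress and salicylate, was at 184 and 202 (wild type) and 1575 and 1141 (double mutant) and rose (log2 change 2.79, adjusted p = 2.0e-05). AOX1A, of alternative respiration, was not called. Of the 13 genes in the oxidative stress list 3 were higher and 2 lower, against 12.3% and 14.3% of all genes. The higher calls numbered 2 and 1 when Col-0 library 1 and 2 were left out, and 5 without med8med25 library 2 and with total-count scaling.

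**Figure D5:**
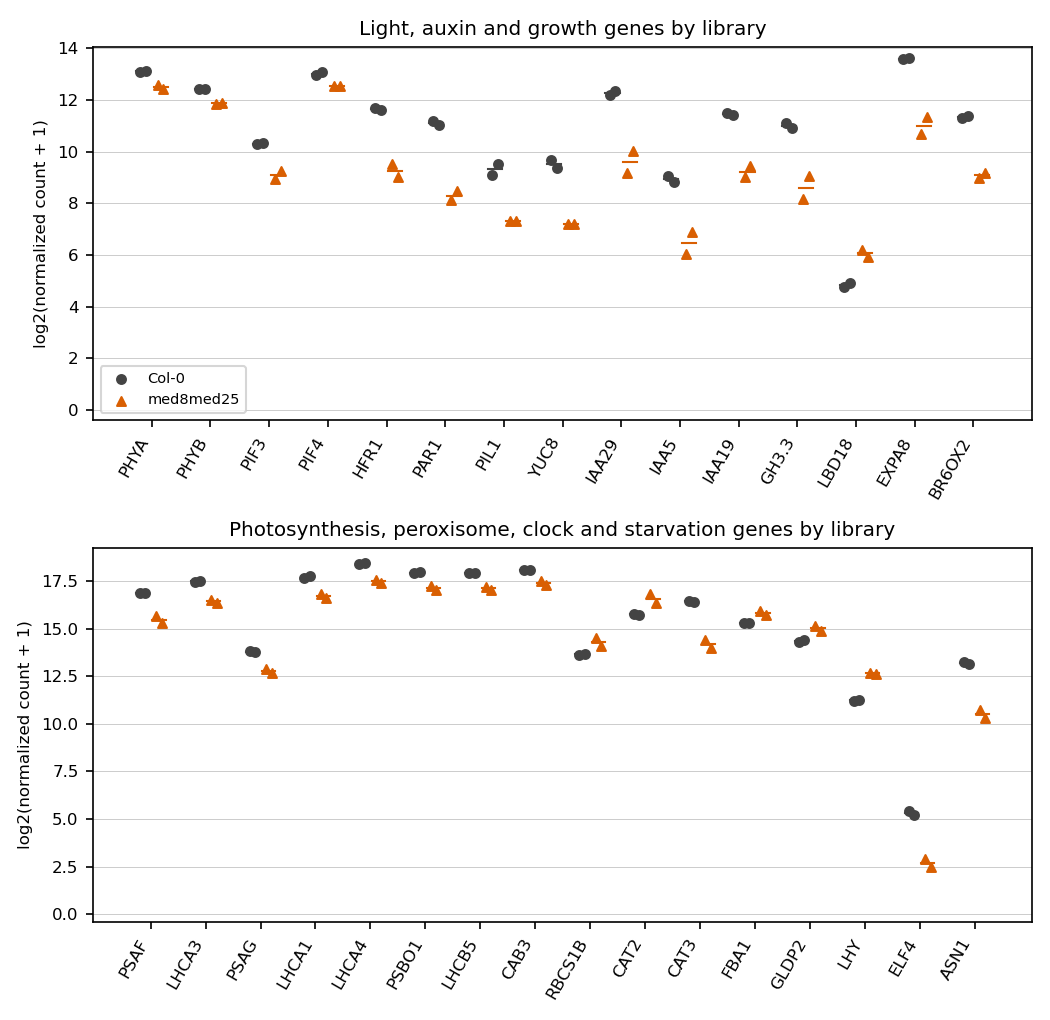
Log2(normalized count + 1) in each library for light, auxin and growth genes (upper panel) and for genes of photosynthesis, photorespiration, the clock and starvation (lower panel), with Col-0 as grey circles, med8med25 as orange triangles and a bar at the mean of each pair. PAR1, IAA29, EXPA8 and CAT3 lie well below the wild type, the antenna genes lie below it by a smaller step, and CAT2 and LHY lie above it.

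Among the clock genes some rose and others fell. LHY, a morning MYB factor, was at 2355 and 2442 (wild type) and 6585 and 6346 (double mutant), a log2 change of 1.43 (SE 0.07, adjusted p = 1.1e-05), and was above hac1hac5 as well, at 3144 and 3303 (log2 difference 1.004, adjusted p = 2.7e-05). Its near twin CCA1 was at 4129 and 4247 (wild type) and 4584 and 5019 (double mutant) and was not called. ELF4, of the evening complex, was at 41.6 and 36.6 (wild type) and 6.49 and 4.66 (double mutant), a log2 change of -2.62 (adjusted p = 7.8e-04). GRP7, an RNA-binding protein driven by the clock, was at 3082 and 2744 (wild type) and 1239 and 1287 (double mutant), a log2 change of -1.20 (adjusted p = 1.1e-04). PRR5 (-0.94) and PRR9 (-0.72), pseudo-response regulators, fell, neither called in a fit lacking Col-0 library 1 (-0.81 and -0.62). RVE8 rose (0.52), a call not made in fits lacking Col-0 library 2 (0.49). TOC1 and LUX were not called. In all 8 of 20 were lower and 3 higher, against 14.3% and 12.3% of all genes, and with total-count scaling 4 and 4. Fits lacking Col-0 library 1 and 2 called 2 and 4 lower and 2 and 1 higher. The hour of harvest is not given in the labels, and its part was not tested.

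The evening element, AAAATATCT on either strand, is bound by LHY, CCA1 and the RVE factors. It occurred in the 250 upstream bases of 4.32% of the genes lower by at least 1, of 2.28% of those higher by at least 1 and of 2.40% of all genes, with 42 genes in the first class, and these shares were not tested. Of the 20 clock genes 4 have it: PRR5 and GRP7, which fell, and TOC1 and LUX, which were not called. The windows of GRP7, PRR5, CAT3 and MYBL2 are shown as called decreases with the element, which is in capitals, from RefSeq (TAIR10.1), 5′ to 3′ on the strand of the gene. They lie on chromosome 2 from 9266567 to 9266646 (minus strand), chromosome 5 from 8358699 to 8358758 (minus), chromosome 1 from 7142868 to 7142927 (plus) and chromosome 1 from 26796719 to 26796778 (minus):
GRP7: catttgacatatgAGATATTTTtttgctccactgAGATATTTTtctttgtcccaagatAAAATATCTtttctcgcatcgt
PRR5: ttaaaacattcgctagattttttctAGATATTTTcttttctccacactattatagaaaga
CAT3: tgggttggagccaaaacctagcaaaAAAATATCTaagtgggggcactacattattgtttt
MYBL2: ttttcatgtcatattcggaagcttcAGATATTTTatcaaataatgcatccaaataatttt

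GRP7 holds 3 copies, which begin 76, 55 and 31 bases before its start.

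Genes known from sugar starvation and darkness were in part lower. ASN1, asparagine synthetase, was at 9841 and 9052 (wild type) and 1705 and 1278 (double mutant), a log2 change of -2.68 (SE 0.13, adjusted p = 1.2e-05). BCAT2, of branched-chain amino acid breakdown, was at 186 and 196 (wild type) and 31.0 and 39.5 (double mutant), a log2 change of -2.42 (adjusted p = 9.1e-05), and SEN1 at 10373 and 9305 (wild type) and 3508 and 4844 (double mutant), a log2 change of -1.25 (adjusted p = 8.7e-04). ASN1 and BCAT2 were also lower than in hac1hac5 (log2 differences -3.47 and -2.38, adjusted p = 2.8e-06 and 5.6e-05). NAC6, also called ORE1, a regulator of leaf ageing, was at 735 and 748 (wild type) and 246 and 497 (double mutant), a log2 change of -1.08, a call not made in fits lacking Col-0 library 1 (-1.10) or 2 (-1.07). NAP, another such regulator, was not called. Of 12 genes in the list 5 were lower and 1 higher, against 14.3% and 12.3% of all genes. Its median of -0.59 was -0.37 when med8med25 library 1 was left out.

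Some genes of iron uptake were higher and 2 ferritin genes lower. Of 19 iron deficiency genes 7 were higher and 0 lower, against 12.3% and 14.3% of all genes, with a median of 0.52. FRO2, the root ferric reductase, was at 157 and 263 (wild type) and 418 and 483 (double mutant), a log2 change of 1.14 (adjusted p = 0.0094). NAS2, a nicotianamine synthase, was at 24.1 and 27.9 (wild type) and 54.3 and 81.9 (double mutant), a log2 change of 1.33 (adjusted p = 0.029). AT1G47395, whose product the annotation does not characterise, was at 300.2 and 473 (wild type) and 731 and 972 (double mutant), a log2 change of 1.16. The wild-type libraries differed for many of these genes, the second being the higher: IRT1, the iron transporter, was at 487 and 867 (wild type) and 768 and 1065 (double mutant), and BHLH39 at 355 and 744 (wild type) and 645 and 893 (double mutant), and neither was called. Without the first Col-0 library none of the list was called and its median was 0.06, with FRO2 at 0.77, NAS2 at 1.23 and AT1G47395 at 0.83. Without the second, 2 were called and the median was 0.70, and NAS2 (1.43) and AT1G47395 (1.49) were not among them. NAS2 (1.04) and AT1G47395 (0.95) were also not called without the second med8med25 library, where 3 were higher and 1 lower (median 0.32). The calls in this list thus depended on which libraries were in the fit.

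Of 4 ferritin genes, whose products store iron, 2 were lower and 0 higher, against 14.3% and 12.3% of all genes. FER1 was at 2665 and 2471 (wild type) and 1010.5 and 727 (double mutant), a log2 change of -1.58 (SE 0.14, adjusted p = 2.0e-04). FER4 was at 568 and 472 (wild type) and 277 and 245 (double mutant), a log2 change of -0.99 (adjusted p = 8.1e-04). FER3 was at 469 and 460.4 (wild type) and 457 and 438 (double mutant) and FER2 at 63.8 and 59.1 (wild type) and 48.2 and 58.3 (double mutant), and neither was called. Both decreases held without each of the 4 libraries, and FER1 was far below its level in hac1hac5, at 9901 and 11411 (log2 difference -3.63, adjusted p = 2.9e-06).

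Phenylpropanoid genes divided between branches. In the flavonoid branch 8 of 17 fell and 1 rose, against 14.3% and 12.3% of all genes, with a median of -0.78. In each fit lacking a Col-0 library, 4 were lower and 0 higher. PAP1, the MYB activator of anthocyanin synthesis, was at 22.2 and 24.7 (wild type) and 5.4 and 6.58 (double mutant), a log2 change of -1.81 (adjusted p = 0.0014). MYBL2, a repressor of the same pathway, fell also, at 4321 and 4334 (wild type) and 1147 and 1486 (double mutant), a log2 change of -1.73 (adjusted p = 5.8e-05). FLS1, flavonol synthase, was at 335 and 371 (wild type) and 129 and 142 (double mutant), a log2 change of -1.38 (adjusted p = 1.8e-04), and TT4, chalcone synthase, at 2714 and 2993 (wild type) and 1637 and 1563 (double mutant), a log2 change of -0.83 (adjusted p = 6.5e-04). The flavonol activators MYB111 (-1.37) and MYB12 (-1.19) were lower, and were not called in fits lacking Col-0 library 1 (-1.38 and -1.05) or 2 (-1.35 and -1.32).

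The general pathway and the lignin branch rose instead. Of 13 genes 10 were higher and 0 lower, against 12.3% and 14.3% of all genes, with a median of 0.34. 4CL2, which activates the common precursors, was at 571 and 537 (wild type) and 996 and 1034 (double mutant), a log2 change of 0.87 (adjusted p = 2.5e-04). CCR1, the first enzyme of the lignin branch, was at 1129 and 1095 (wild type) and 2124 and 1819 (double mutant), a log2 change of 0.82 (adjusted p = 5.8e-04), with 33.3% of its windows in no other gene. HCT was at 6682 and 7038 (wild type) and 11318 and 9063 (double mutant), a log2 change of 0.56, a call not made in fits lacking Col-0 library 1 (0.53) or 2 (0.60). The fits that lacked a Col-0 library made 2 higher calls each, while with total-count scaling all 13 genes were higher.

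Transcripts for the synthesis of glucosinolates, the mustard oil precursors, and for their cleavage were more often lower than higher. TGG2, a myrosinase of guard cells and phloem idioblasts, was at 38488 and 45528 (wild type) and 7968 and 6954 (double mutant), a log2 change of -2.49 (adjusted p = 7.1e-05), and TGG1 at 100310 and 109350 (wild type) and 52103 and 51683 (double mutant), a log2 change of -1.01 (a call not made in fits lacking Col-0 library 2 (-0.95)). ESP, a specifier protein that steers the products of cleavage, was at 1634 and 1764 (wild type) and 591 and 447 (double mutant), a log2 change of -1.72 (adjusted p = 6.9e-05). In the aliphatic pathway 7 of 12 genes were lower and 2 higher, against 14.3% and 12.3% of all genes, with a median of -0.47. Only 2 were lower in each fit lacking a Col-0 library, and 3 with total-count scaling (median -0.32). MAM1, which elongates methionine, was at 6292 and 7191 (wild type) and 1882 and 2923 (double mutant), a log2 change of -1.52 (adjusted p = 7.8e-04), and MAM3 at 1235 and 1186 (wild type) and 579.6 and 618 (double mutant), a log2 change of -1.02 (adjusted p = 0.0015). The regulator MYB76 was at 39.6 and 37.6 (wild type) and 8.9 and 23.7 (double mutant), a log2 change of -1.34, a call not made in fits lacking Col-0 library 1 (-1.31) or 2 (-1.38), or med8med25 library 1 (-0.68), with no filter (-1.34) and with total-count scaling (-1.27). CYP79F2 rose (0.65, adjusted p = 0.002) while CYP79F1, its tandem paralog, was lower (-0.80). In the indole pathway CYP79B3 fell (-0.77), and its regulator MYB51 rose (0.91), a call not made in fits lacking Col-0 library 1 (0.96) or 2 (0.86). Of the 12 indole genes 4 were lower and 2 higher, against 14.3% and 12.3% of all genes, and the median of -0.19 ran from -0.31 without med8med25 library 1 to -0.03 without its library 2.

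The largest single changes were mostly in genes outside the lists. AT4G27654, annotated as an uncharacterized protein, rose most, at 2.9 and 2.17 (wild type) and 153 and 149 (double mutant), a log2 change of 5.44 (adjusted p = 6.2e-06). DIC2, a mitochondrial dicarboxylate carrier, was at 116 and 124 (wild type) and 3203 and 3267 (double mutant), a log2 change of 4.74 (SE 0.08, adjusted p = 5.7e-08). ERF13 was at 7.72 and 8.58 (wild type) and 133 and 162 (double mutant), a log2 change of 4.02 (adjusted p = 9.5e-06). AT4G27657 (4.06) and AT3G10930 (3.84), both uncharacterized, and AT5G45630, with a domain of senescence regulators (3.89), rose too. ZAT10, CBF1 and CBF2, given above, belong to the same 10 genes. AT3G01345, uncharacterized, was at 886 and 246 (wild type) and 6809 and 6779.7 (double mutant), a log2 change of 3.86, from wild-type libraries that differed from each other more than 3-fold. DIC2 and ERF13 were still higher in hac1hac5, at 12389 and 13559 and 435 and 489.5.

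Of the 10 largest decreases, all but TPS04 and AT4G12500 were also lower in hac1hac5 than in Col-0. Their log2 changes in hac1hac5 ran from -8.64 (AT1G64795) to -1.28 (AT5G44578). Of all 23898 genes tested, 5010 were called lower in hac1hac5 than in Col-0. Both comparisons use the same Col-0 libraries, and the 10 genes were picked for their fall against these, so the 2 comparisons are not independent. In med8med25, AT4G01390, of the TRAF-like family, was at 278 and 289.7 (wild type) and 0.0356 and 0.945 (double mutant), a log2 change of -7.65 (adjusted p = 4.7e-05). AT3G16670, of the pollen Ole e 1 and extensin family, was at 576 and 562 (wild type) and 2.81 and 4.71 (double mutant), a log2 change of -6.93 (adjusted p = 3.5e-06). AT1G64795, uncharacterized, was at 397 and 401 (wild type) and 2.54 and 0.914 (double mutant), with 38.8% of its windows in no other gene and no read in hac1hac5. CWINV5, a cell wall invertase, was at 58.0 and 53.7 in Col-0 and without a read in med8med25, at least 16.5-fold lower with the floor of 3 reads per library. The uncharacterized AT5G44578 was at 46.4 and 43.0 and likewise without a read, at least 13.2-fold lower. PRB1, a basic relative of PR1, was at 86.0 and 83.7 (wild type) and 1.25 and 0 (double mutant), a log2 change of -5.84 (adjusted p = 9.5e-05). TPS04, which makes a volatile terpene after wounding, was at 61.0 and 38.9 (wild type) and 0.0709 and 1.9 (double mutant), a log2 change of -4.82, against 253 and 312 in hac1hac5. In the med8med25 libraries, whole reads were 0 and 1 for AT4G01390, 1 and 0 for PRB1 and 0 and 2 for TPS04. The size of the change in these genes therefore depends on the pseudocount. The copper amine oxidase gene AT1G31690 (-4.67), the B12D-family gene AT3G29970 (-5.44) and the lipid-transfer-family gene AT4G12500 (-4.55) completed the 10. All 20 of these calls except that of CBF1 were made without each of the 4 libraries.

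Of the genes described, some differed between med8med25 and hac1hac5 and others did not pass the test. ORA59 (adjusted p = 0.24), SEP3 (0.7), MAF5 (0.96), FLC (0.074), YUC8 (0.83), PIL1 (0.46), IAA5 (0.95), SARD1 (0.97) and TGG2 (0.48) did not differ between the mutants at the threshold, which does not show that they were alike. In log2 difference between med8med25 and hac1hac5 these genes ranged from -0.86 (ORA59) to 0.16 (PIL1). In contrast, P5CS1 was at 8456 and 8353 in med8med25 and 92036 and 101330 in hac1hac5 (log2 difference -3.52, adjusted p = 8.4e-07), and ZAT10 at 1907 and 1789 against 8448 and 9800.1 (log2 difference -2.30, adjusted p = 9.2e-06). VSP1 was at 223 and 209 against 1267 and 1368 (log2 difference -2.60, adjusted p = 2.8e-06). Of the 12 touch genes that rose, 11 were below their hac1hac5 level at an adjusted p under 0.05, ERF104 being the exception (-0.18, adjusted p = 0.58). At that threshold 4888 of all 23898 genes were lower in med8med25 than in hac1hac5, and 4999 were higher.

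Root hair markers summed to 9732 and 8635 normalized counts in Col-0 and 10230 and 11620 in med8med25, and 2 of 13 were higher and 1 lower. Other root markers summed to 9442 and 8868 against 9404 and 8742, with 3 of 10 higher and 2 lower, where 12.3% and 14.3% of all genes were higher and lower. Lacking Col-0 library 1 and 2, the higher calls were 1 and 0 among the root hair markers and 2 and 1 among the others. CASP1, of the root endodermis, was at 926 and 917 (wild type) and 1539 and 1533 (double mutant), a log2 change of 0.74 (adjusted p = 2.2e-04), and THAS1, of root triterpene synthesis, at 1278 and 1116 (wild type) and 428 and 491 (double mutant), a log2 change of -1.38 (adjusted p = 7.2e-05). RSL2, a regulator of root hair growth, was at 117 and 84.1 (wild type) and 28.6 and 42.4 (double mutant), a log2 change of -1.48, a call not made in fits lacking Col-0 library 1 (-1.25). The root hair sum was higher in both med8med25 libraries, and the sums of the other root markers overlapped. The part of tissue make-up in the results was not tested.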

How the data were processed

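RNA of whole seedlings was measured in 6 libraries, 2 for each of 3 genotypes, and grouped by the labels. The authors deposited a normalized count signal per gene, not corrected for gene length. Per the submitters' processing notes HISAT2, featureCounts, edgeR and the TAIR10 build were used, with versions, annotation, strand setting and the treatment of multi-mapping reads not given in the sources used here. Whole reads behind all 195288 deposited values were recovered (100% within a relative tolerance of 1e-06), which gave the depth of 24.9 to 36.8 M reads per library. Of 32548 genes listed, 6389 had no read in any library.

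From the deposited values, log2(normalized count + 1) was computed, genes with at least 1 in at least 2 libraries were kept, and limma-trend (limma 3.58.1, R 4.3.3) was fitted with genotype as the only term on all 6 libraries, with Benjamini-Hochberg adjustment over 23898 genes and a call at an adjusted p under 0.05. A fold change on this scale understates the change of low genes. The same steps were also run on simulated data, whose outcome is not reported here. Genes were named by a rule: the targeted genes, the 10 largest called rises and falls in log2 change with a mean of at least 20 and without overlap, the 5 largest called rises and falls in normalized counts, and up to 3 called members of each list, with all members of the flowering, ERF branch and ferritin lists where needed. That rule gave 155 of the 230 genes with values, and the others were chosen after their values were seen. The gene lists and the members were chosen with earlier results of these data known. Alternatives were other pseudocounts, filters, scalings, voom, only 4 libraries, a replicate block and leaving out each library, and voom on recovered reads and the block with 4 libraries were added after seeing the data. Promoters are the 250 bases before the start of each gene in RefSeq's TAIR10.1 annotation. The share of unique windows counts the distinct 50-base exon windows of a gene that occur in no other gene's exons on either strand.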

Additional observations from a re-analysis of the deposited data

How the results depend on the processing

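MED8 and MED25 stayed lower and called under every alternative run. Leaving out 1 library gave 816 to 3006 higher and 1095 to 3538 lower genes. Total-count scaling gave 5203 higher and 1965 lower, and the median of all genes moved by 0.15. The deviations of same-numbered libraries correlated at -0.04 between Col-0 and med8med25 over 23898 genes. This value cannot show whether same-numbered libraries were grown or handled together, which the labels do not state. The replicate block gave 2438 higher and 2919 lower genes, and 1572 and 2007 with only 4 libraries. All other alternatives kept both counts within 1.5 times 2929 and 3421. Of 230 genes given with values, 200 were called, and 67 and 71 lost their call without the first and the second Col-0 library, against 9 and 8 without the first and the second med8med25 library. Changes of sign occurred only in genes that were not called. Over the fits that left out 1 library, PP2CA ranged from -0.168 to 1.80, TOC1 from -0.0178 to 0.179, LFY from -1.47 to 0.468, SPL5 from -0.370 to 0.00598, SPL9 from -0.346 to 0.138, MAF3 from -0.454 to 0.0535 and MAF2 from -0.293 to 0.0737. Total-count scaling reversed FER3 (0.105), SPL9 (0.0430) and MAF2 (0.0463). The cause was not tested. With 2 libraries a group, small changes and genes of few reads are the least certain.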

Other observations

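Of 10 phosphate starvation genes 5 were lower and 1 higher, against 14.3% and 12.3% of all genes, with a median of -0.57. SQD2, which makes sulfolipid in place of phospholipid, was at 2921 and 3143 normalized counts (wild type) and 1911 and 2020.4 (double mutant), a log2 change of -0.62 (adjusted p = 7.1e-04). PS2, an inorganic pyrophosphatase gene, was at 127 and 126 (wild type) and 57.5 and 45.9 (double mutant), a log2 change of -1.28, a call not made in fits lacking Col-0 library 1 (-1.27) or 2 (-1.29). The transporter gene PHT1;1 went the other way, at 849.5 and 857 (wild type) and 1399.8 and 1400.0 (double mutant), a log2 change of 0.71 (adjusted p = 3.3e-04). Without the first or without the second Col-0 library 1 higher and 1 lower call were left in the list. Of 9 nitrate genes 2 were higher and 1 lower, against 12.3% and 14.3% of all genes. Their median of -0.04 ran from -0.19 without med8med25 library 1 to 0.09 without its library 2, so no direction is given for the list. The nitrate reductase genes NIA1 and NIA2 were not called.

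In the heat shock list 3 of 12 genes were lower and 0 higher, against 14.3% and 12.3% of all genes, and 1 was lower in the fit lacking Col-0 library 2. HSP18.2, a small chaperone, was at 101 and 98.8 (wild type) and 25.1 and 24.4 (double mutant), a log2 change of -1.97 (adjusted p = 9.0e-04). HSP101, which dissolves protein aggregates, was at 639.8 and 649 (wild type) and 449.9 and 409.9 (double mutant), a log2 change of -0.58 (adjusted p = 0.0029), a call not made in fits lacking Col-0 library 2 (-0.57). HSP70 and HSP90.1 were not called.

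Seed and embryo markers summed to 1894 and 3699 in Col-0 and 525.7 and 1126 in med8med25. Of 9 tested 2 were lower and 0 higher, against 14.3% and 12.3% of all genes. Their median of -0.91 depended on the libraries, at -1.34 and -0.47 in fits lacking Col-0 library 1 and 2. CRA1, a cruciferin storage protein, was at 1551 and 2608 (wild type) and 345 and 744 (double mutant), a log2 change of -1.99 (adjusted p = 0.029), a call not made in fits lacking Col-0 library 1 (-2.36) or 2 (-1.61), or med8med25 library 1 (-1.43). The second library of each genotype was the higher. Among gene classes, 27.6% of protein-coding genes were called, against 8.81% of 840 long non-coding RNAs, of which 19 were higher and 55 lower.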
